A study of Mus musculus with 72 samples.

Results

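The liver mRNA arrays of mice exposed to 12 Gy were compared with those of sham-irradiated mice. These 6 arrays, of 72 in the series, were chosen by their titles, which give the tissue, the dose and the time, and each array holds RNA from the liver of 1 mouse. The 0 Gy group was mice 1, 11 and 21 and the 12 Gy group mice 6, 16 and 26. All were female C57BL/6 J mice aged 6 to 8 weeks. The 12 Gy mice received 1 whole body X-ray exposure on a small animal irradiator, the sham 0 Gy mice were confined in the same kind of container, and livers were taken 48 h later. The series also holds liver and lung from mice given 1, 2, 4 or 8 Gy, and miRNA arrays under the same sample numbers. The 3 liver arrays of 8 Gy mice 5, 15 and 25 serve here as the nearest dose.

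Ionizing radiation breaks DNA, and the kinases that sense the breaks stabilize the transcription factor p53. p53 raises the RNA of genes that halt the cell cycle, promote cell death or repair DNA, and, through the cell cycle inhibitor p21, genes of mitosis are repressed by a complex that binds their promoters. Most hepatocytes rest outside the cell cycle and tolerate radiation, while blood cell precursors and lymphocytes are among the most sensitive cells of the body. A liver sample holds hepatocytes, the macrophages, endothelial and stellate cells of the sinusoids, bile duct cells, and the blood and immune cells within its vessels, and all of them contribute to the RNA on an array. The liver also answers signals from elsewhere: cytokines induce acute phase proteins, glucocorticoids and fasting turn on fat oxidation and glucose output, and insulin turns on fat synthesis.

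All levels below are log2 normalised intensities of 1 probe per gene, the brightest, listed for mice 1, 11 and 21 and then for mice 6, 16 and 26. They compare mice for a gene and not genes with each other. A log2 fold change (log2FC) is the mean of the 12 Gy mice minus that of the 0 Gy mice, ± its standard error, with n = 3 mice a group, and a difference of 1 is a doubling. A probe was called at an absolute log2FC above 1 and a Benjamini-Hochberg (B-H) adjusted p below 0.05 in limma. Where a probe was not well above background on any array of the dimmer group the fold is a lower bound, written "at least".

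The arrays resembled each other closely. Between 46.6% and 54% of spots were well above background, Pearson correlations over the tested probes were 0.9904 to 0.9924 among the 0 Gy mice, 0.9852 to 0.9904 among the 12 Gy mice and 0.9783 to 0.9857 between the groups, and the median SD of a probe was 0.17 at 0 Gy and 0.20 at 12 Gy. Mouse 6 was the farthest from the other 12 Gy mice. The hepatocyte list, of secreted proteins and enzymes that define the cell, had 0 of 20 genes called and a median log2FC of 0.00. *Alb*, the gene of serum albumin, was at 18.73, 18.73 and 18.73 against 18.73, 18.78 and 18.71. The arrays lay on 3 slides: all 0 Gy mice on slide 1, mouse 6 on slide 2 and mice 16 and 26 on slide 3. No slide held both groups, so no within-slide value exists. A model with the slide as a term joins them only through 2 Gy mouse 23 on slide 2 and 12 Gy mouse 6. Slide 3 held no liver array of another dose, so the 12 Gy value of that fit is the value of mouse 6 less a slide 2 shift. This shift is the value of mouse 23 against those of 2 Gy mice 3 and 13 on slide 1. Mice 16 and 26 enter only that fit's estimate of the spread. Counts from that fit, called the slide model below, stand beside each list where they differ by more than 1.5 times.

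Of 38362 probes tested, 790 were called, or 2.06%. The 280 upregulated probes were 0.73% and the 510 downregulated probes 1.33% of those tested, and the median log2FC over all probes was 0.01. In the slide model 197 were called higher and 151 lower. The changes were unequal in size: 29 probes rose and 75 fell by more than 4-fold, and 152 called probes were not well above background on any 12 Gy array against 30 on no 0 Gy array. Counted by gene, 159 of 18164 named genes were upregulated (0.875%) and 345 downregulated (1.9%), with a median log2FC of -0.02. Every 12 Gy mouse lay above every 0 Gy mouse for 15.9% of these genes and below for 19.8%. The percentages by gene are the background for each list that follows.

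**Figure D1:**
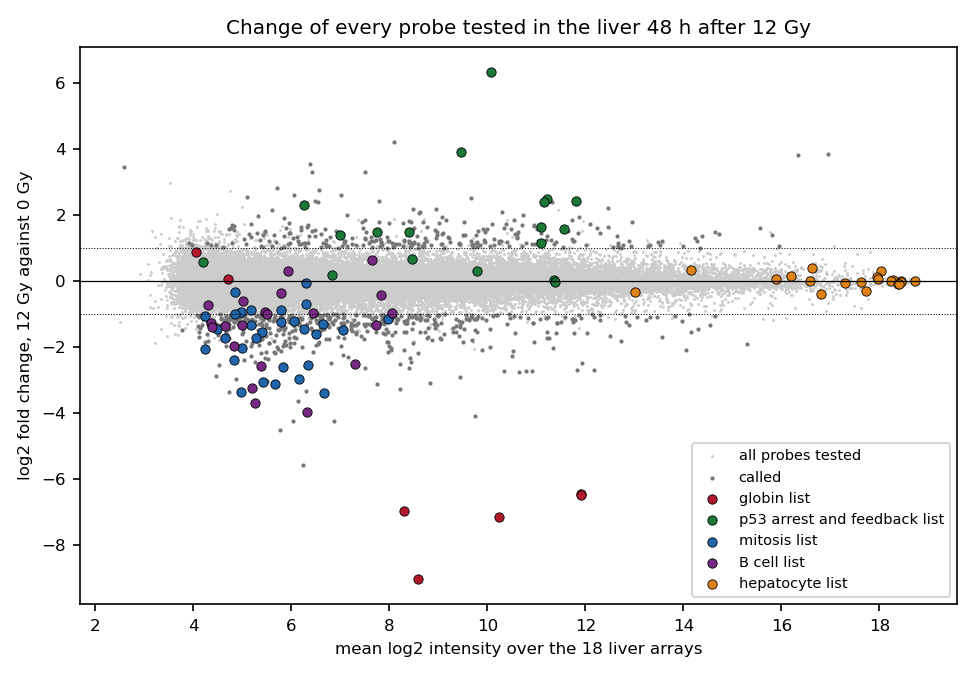
Each point is a probe, with its mean log2 intensity over the 18 liver arrays on the x axis and its log2 fold change at 12 Gy against 0 Gy on the y axis; dark grey marks called probes, colours mark the members of 5 lists, and dotted lines are at 1 and -1. The adult globins lie lowest, with fitted values from -6.44 to -9.02 (the latter *Hbb-bt*, at background at 12 Gy), *Cdkn1a* highest, at 6.33, and the hepatocyte genes close to 0.

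Of 18 tested genes of p53 arrest and feedback, 8 were upregulated and 0 downregulated, with a median log2FC of 1.49, and 6 were called in the slide model. *Cdkn1a*, which encodes the cell cycle inhibitor p21, was at 5.94, 6.76 and 6.70 in the 0 Gy mice and 12.58, 12.62 and 13.18 in the 12 Gy mice. This was the largest rise of any named gene, a log2FC of 6.33 ± 0.24 or 80.3-fold (adjusted p = 2.33e-09). *Phlda3*, which restrains the survival kinase AKT, was at 7.46, 7.42 and 7.29 against 11.24, 11.41 and 11.29 (log2FC 3.92 ± 0.14, adjusted p = 2.33e-09). The 6 values of each gene fell into groups far apart, with little spread among the mice of a dose.

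The other upregulated genes of arrest and feedback followed at lower size. *Trp53inp1*, a cofactor of p53, was at 10.37, 10.64 and 10.61 against 13.01, 12.71 and 13.23 (log2FC 2.44 ± 0.19, adjusted p = 3.16e-06). *Ccng1*, cyclin G1, was at 9.99, 9.52 and 9.98 against 12.31, 12.20 and 12.14 (log2FC 2.39 ± 0.20, adjusted p = 6.17e-06). *Ddit4l*, an inhibitor of mTOR signalling, was nearly the same in the mice of each dose, at 5.47, 5.47 and 5.41 against 7.72, 7.75 and 7.76 (log2FC 2.29 ± 0.25, adjusted p = 8.13e-05). No 12 Gy mouse overlapped a 0 Gy mouse in any of these genes. *Mdm2*, the ubiquitin ligase by which p53 limits itself, rose by 1.59 ± 0.15 on the log2 scale (adjusted p = 1.99e-05), and *Sesn2* and *Plk2* each rose by 1.49. Under the slide model *Mdm2* (adjusted p = 0.0518) and *Sesn2* (adjusted p = 0.312) were not called.

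Some known p53 targets were not called. *Gdf15*, a stress hormone, was at 8.21, 10.09 and 11.32 against 12.17, 12.00 and 12.89, a log2FC of 2.48 ± 0.76 (adjusted p = 0.0639). *Btg2*, a brake on proliferation, was at 9.02, 10.75 and 12.08 against 11.36, 12.46 and 12.91, so that the groups overlapped (adjusted p = 0.334). In both genes mouse 1 was the lowest and mouse 21 the highest of the 0 Gy group. *Zmat3* (log2FC 1.38, adjusted p = 0.116) and *Plk3* (log2FC 1.16, adjusted p = 0.0563) were also not called. *Sesn1*, the relative of *Sesn2*, was at 11.38, 11.52 and 11.37 against 10.92, 11.83 and 11.49, with overlap.

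In the list of p53 targets that promote cell death, 5 of 15 genes were upregulated and 0 downregulated, with a median log2FC of 0.51. *Eda2r*, a death receptor of the TNF family, was at 3.84, 4.17 and 4.72, on no 0 Gy array well above background, and at 8.00, 7.59 and 7.79, on all 12 Gy arrays well above it. It was at least 10.3-fold higher at 12 Gy (adjusted p = 6.17e-06). *Tnfrsf10b*, the receptor of the death ligand TRAIL, was at 5.46, 5.68 and 6.03 against 7.99, 8.73 and 8.27 (log2FC 2.61 ± 0.29, adjusted p = 0.000116). *Aen*, a nuclease of apoptosis, rose by 1.62 ± 0.13 (adjusted p = 5.54e-06). *Bax*, which opens the outer mitochondrial membrane, rose by 1.18 ± 0.14, from 10.66, 10.91 and 10.87 to 11.94, 12.00 and 12.04. *Psrc1*, a spindle protein that p53 also activates, completed the 5 with a log2FC of 1.76.

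The remaining death genes were not called, and several lay close to 0. *Bbc3*, the gene of PUMA, was at 10.66, 10.71 and 10.38 against 9.84, 10.43 and 10.51, with a log2FC of -0.33 ± 0.22. *Pmaip1*, the gene of NOXA, had a log2FC of 0.15 ± 0.14, *Fas* of 0.40 ± 0.16 and *Perp* of 0.05 ± 0.10. PUMA and NOXA block the survival proteins of the BCL2 family, and BAX acts after them.

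**Figure D2:**
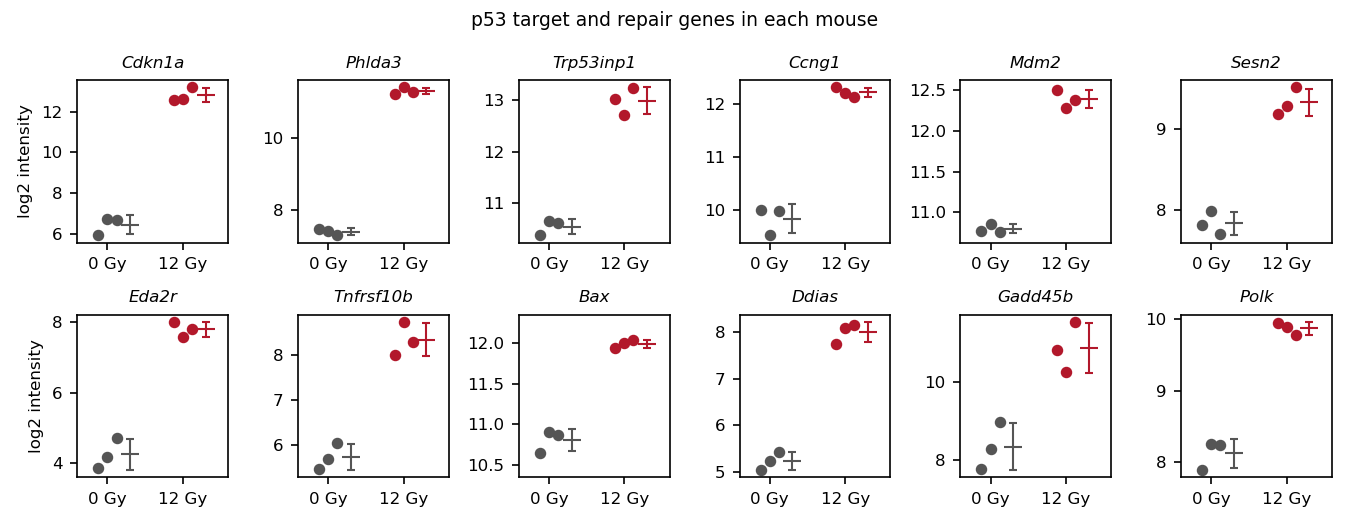
Log2 intensity (y axis) of 12 p53 target and repair genes at 0 Gy (grey) and 12 Gy (red); dots are mice 1, 11 and 21 and mice 6, 16 and 26 from left to right, and the dash with its bar is the mean ± SD. The groups do not overlap in any panel.

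Among 23 genes of DNA damage and repair, 3 were upregulated and 2 downregulated, with a median log2FC of 0.11 (-0.03 in the slide model, which turned its sign). *Ddias*, a suppressor of apoptosis after damage, was at 5.04, 5.23 and 5.44 against 7.76, 8.09 and 8.17 (log2FC 2.77 ± 0.21, adjusted p = 2.71e-06), and 1 of 3 0 Gy arrays measured it above background. *Gadd45b*, a stress sensor, was at 7.79, 8.29 and 8.98 against 10.82, 10.24 and 11.53 (log2FC 2.51 ± 0.40, adjusted p = 0.00151). *Polk*, a polymerase that copies past damaged bases, rose by 1.76 ± 0.13, while a dimmer probe of it gave 0.59 and was not called. *Rad51ap1* and *Fanci*, which serve repair by recombination and of crosslinks, fell to background on all 12 Gy arrays, at least 2.45-fold and at least 2.44-fold. Without mouse 11, 21 or 16, 1 gene was called lower in place of 2, and 0 were in the slide model or with a normexp offset of 50. *Gadd45a* was at 7.83, 8.28 and 9.15 against 7.90, 8.30 and 9.38.

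p53 acts through a response element made of copies of a half-site of 10 bases, and 3 promoters of the arrest and feedback list are shown that were chosen because they hold a match. The sequences are from RefSeq on GRCm38.p6 and cover the 250 bases before a start site, written 5′ to 3′ on the strand of the gene, with matches to the p53 half-site on either strand in capitals. The windows are *Cdkn1a* chr17:29090729-29090978 (+ strand), the upstream of its 2 starts, *Ccng1* chr11:40755287-40755536 (- strand) and *Ddit4l* chr3:137623422-137623671 (+ strand).
*Cdkn1a*: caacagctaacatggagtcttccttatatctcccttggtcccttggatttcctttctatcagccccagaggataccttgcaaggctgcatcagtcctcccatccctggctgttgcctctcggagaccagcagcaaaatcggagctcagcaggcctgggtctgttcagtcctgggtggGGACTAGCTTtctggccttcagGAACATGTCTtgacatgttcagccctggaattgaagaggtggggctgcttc
*Ccng1*: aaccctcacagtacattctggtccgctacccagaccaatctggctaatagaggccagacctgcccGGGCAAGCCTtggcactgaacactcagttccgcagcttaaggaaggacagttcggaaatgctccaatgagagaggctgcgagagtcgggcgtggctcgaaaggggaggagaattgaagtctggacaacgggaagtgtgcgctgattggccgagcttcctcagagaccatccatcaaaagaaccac
*Ddit4l*: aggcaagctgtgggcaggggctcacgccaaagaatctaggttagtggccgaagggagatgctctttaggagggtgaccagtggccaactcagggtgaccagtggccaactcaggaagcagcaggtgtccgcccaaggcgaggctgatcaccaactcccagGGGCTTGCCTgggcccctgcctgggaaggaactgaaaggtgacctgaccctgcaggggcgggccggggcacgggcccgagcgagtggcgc

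The *Cdkn1a* window held 2 half-sites, at -73 to -64 and -51 to -42 from the start, *Ccng1* held 1 at -185 to -176 and *Ddit4l* 1 at -90 to -81. The windows of *Phlda3*, *Sesn2* and *Plk2* held none, nor did the window of the other *Cdkn1a* start, not shown. A half-site was found in 6 of 20 promoters of the arrest and feedback list (30.0%), in 3 of 16 of the death list (18.8%) and in 7.13% of all 32851 promoters. A match is a description of the letters and not a bound site, and elements farther from the start were not searched.

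Of 30 mitosis genes tested, 0 were upregulated and 21 downregulated, and the median log2FC was -1.48, while 1 was called in the slide model and 12 with a normexp offset of 50. All 30 values were below 0, and -1.39 was the median with genes at background set to their bound. *Cdc20*, the activator of the anaphase-promoting complex, was at 7.18, 9.48 and 10.13 against 5.43, 5.76 and 5.46 (log2FC -3.38 ± 0.59, adjusted p = 0.00276). *Mki67*, the proliferation antigen, was at 7.29, 8.32 and 9.14 against 4.89, 5.64 and 5.30 (log2FC -2.97 ± 0.41, adjusted p = 0.000559). *Ccnb1*, cyclin B1, was at 5.95, 7.62 and 8.32 and then at 3.75, 4.02 and 4.02, on no 12 Gy array well above background. In each of these genes mouse 1 was the lowest and mouse 21 the highest 0 Gy mouse, while the 12 Gy mice lay close together near background. In RNA of a whole liver, fewer dividing cells and less of each RNA per cell cannot be told apart, and this holds for every cell type below.

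*Ccnb1* was at least 7.94-fold lower (adjusted p = 0.00187), and its near-identical pseudogene *Ccnb1-ps* at least 7.23-fold lower, so that the signal of the pair cannot be divided between them. A dimmer *Ccnb1* probe gave -0.88 and was not called. *Prc1*, which bundles the microtubules of the central spindle, was at least 8.65-fold lower (adjusted p = 0.000454). *Top2a*, the topoisomerase that separates sister chromatids, was at least 7.31-fold lower (adjusted p = 0.000464), while a dimmer probe was not called. *Ccna2*, cyclin A2, fell by 2.60 ± 0.42, *Ube2c*, the ubiquitin carrier of the anaphase-promoting complex, by 2.54 ± 0.44 and *Plk1*, a mitotic kinase, by 1.72 ± 0.30. *Cdk1*, the kinase partner of cyclin B, stood apart on its brightest probe at 6.23, 6.55 and 6.37 against 6.26, 6.38 and 6.38.

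The mitosis list depended on the processing. By the slide model its median log2FC was -1.43 and 1 gene was called in place of 21. With a normexp offset of 50, which shrinks differences near background, 12 were called and the median was -0.87. Leaving out any 1 mouse gave 15 to 27 calls. The median deviation from the 0 Gy mean over the list was -0.83 in mouse 1, 0.18 in mouse 11 and 0.63 in mouse 21, against -1.51, -1.52 and -1.44 in mice 6, 16 and 26. The 0 Gy mice thus differed from each other by more than mouse 1 differed from the 12 Gy mice.

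Genes of DNA replication moved less. Of 22, 0 were upregulated and 4 downregulated, with a median log2FC of -0.50, and 0 were called in the slide model and 2 without mouse 26. *Mcm5*, a subunit of the replicative helicase, was at 7.16, 8.10 and 7.93 against 5.54, 6.22 and 5.94 (log2FC -1.83 ± 0.29, adjusted p = 0.00174). *Uhrf1*, which guides maintenance of DNA methylation, fell by 1.95 ± 0.40, *Gins2* by 1.19 ± 0.32 and *Mcm10* by 1.07 ± 0.23. *Pcna*, the sliding clamp and also a p53 target, was at 12.52, 12.51 and 12.58 against 12.44, 12.60 and 12.62. *Tk1*, thymidine kinase, had a log2FC of 0.36 ± 0.19 (adjusted p = 0.312).

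The promoters of the mitosis genes share letters that the list was not built on, and those of the 4 genes with the largest falls are shown. Capitals mark CCAAT, the box bound by the factor NF-Y, and the elements TTTGAA and TTTCGAA known as the cell cycle genes homology region (CHR), each on either strand. The windows are *Cdc20* chr4:118437344-118437593 (- strand), *Ccnb1* chr13:100786487-100786736 (- strand), *Prc1* chr7:80294201-80294450 (+ strand), 1 of its 2 starts, and *Top2a* chr11:99024190-99024439 (- strand), all GRCm38.p6.
*Cdc20*: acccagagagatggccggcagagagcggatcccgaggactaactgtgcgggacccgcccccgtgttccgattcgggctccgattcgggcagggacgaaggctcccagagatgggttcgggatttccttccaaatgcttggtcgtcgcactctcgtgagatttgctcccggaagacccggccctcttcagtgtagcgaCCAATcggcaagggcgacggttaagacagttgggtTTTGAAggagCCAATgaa
*Ccnb1*: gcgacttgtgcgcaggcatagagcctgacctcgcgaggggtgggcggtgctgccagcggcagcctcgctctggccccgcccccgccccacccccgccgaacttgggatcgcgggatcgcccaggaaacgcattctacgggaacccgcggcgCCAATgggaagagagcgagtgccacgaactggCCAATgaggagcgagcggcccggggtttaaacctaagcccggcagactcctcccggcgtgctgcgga
*Prc1*: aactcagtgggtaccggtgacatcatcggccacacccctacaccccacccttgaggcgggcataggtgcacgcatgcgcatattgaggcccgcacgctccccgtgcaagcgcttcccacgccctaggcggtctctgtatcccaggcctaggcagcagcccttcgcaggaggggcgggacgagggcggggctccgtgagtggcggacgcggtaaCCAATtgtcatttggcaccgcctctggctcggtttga
*Top2a*: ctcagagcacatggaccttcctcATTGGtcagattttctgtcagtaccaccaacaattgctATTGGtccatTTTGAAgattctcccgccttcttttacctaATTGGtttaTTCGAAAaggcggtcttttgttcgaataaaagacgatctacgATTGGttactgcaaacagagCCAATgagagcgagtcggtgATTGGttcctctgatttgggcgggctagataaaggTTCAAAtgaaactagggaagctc

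*Top2a* held 6 CCAAT boxes and 3 CHR letters in its window, *Cdc20* held 2 CCAAT boxes and 1 TTTGAA at -18 to -13, *Ccnb1* 2 CCAAT boxes and *Prc1* 1. The window of the other *Prc1* start, not shown, held 1 CCAAT and 1 TTTGAA. Over the list, 21 of 27 promoters held a CCAAT (77.8%) against 33.8% of all promoters, and 14 held at least 2 (51.9% against 10.1%). TTTGAA was found in 9 of 27 (33.3% against 16.0%) and a CCAAT with a CHR in 8 of 27 (29.6% against 5.77%). A CCAAT was in 15 of 20 promoters of the replication list and in 10 of 20 of the p53 arrest list. The GC box GGGCGG, which does not overlap these motifs, was in 66.7% of mitosis promoters against 32.7% of all. These are shares of letters in 250 bases, with no test.

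Adult globins had the largest falls of the named genes. *Hbb-b1*, a beta globin, was at 14.53, 14.41 and 14.54 in the 0 Gy mice and 7.72, 7.41 and 6.96 in the 12 Gy mice (log2FC -7.13 ± 0.45, adjusted p = 4.21e-07). *Hba-a1*, an alpha globin, was at 15.85, 16.09 and 15.97 against 9.76, 9.62 and 9.21, a fall of 86.7-fold (adjusted p = 3.21e-07). *Hbb-bt* was at 13.70, 14.28 and 14.02 and fell to background in all 12 Gy mice, at least 518-fold (adjusted p = 6.36e-08). *Hba-a2* and *Hbb-b2* fell by 6.49 and 6.95. These 5 genes are near-identical within each family, so a probe may read several of them, and all 5 were called in the slide model too. The embryonic *Hba-x* and *Hbb-y* were near background, at 3.84, 4.00 and 3.64 against 3.75, 5.95 and 4.47 for *Hba-x*. Reticulocytes, the young red cells of the blood, carry globin RNA, and which cells of these livers held it was not tested.

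Other red cell genes changed far less. Of 20 tested erythroid genes 4 were downregulated, with a median log2FC of -0.12, or -0.41 without the 6 genes at background in both groups and with genes at their bound. *Alas2*, the first enzyme of heme synthesis in red cells, was at 12.01, 11.64 and 11.72 against 10.36, 10.51 and 10.71 (log2FC -1.26 ± 0.21, adjusted p = 0.00188). *Isg20* fell by 1.23 ± 0.15 and *Slc4a1*, the anion exchanger band 3, at least 2.24-fold. In the slide model 0 of the list were called. *Klf1*, the master factor of erythroid genes, was at 8.92, 8.40 and 8.54 against 8.59, 9.33 and 8.76, and *Tal1* had a log2FC of -0.14. In the heme synthesis list only *Alas2* was called of 10, and *Fech*, the last enzyme, had a log2FC of 0.09 ± 0.09. None of 10 megakaryocyte and platelet genes was called (median log2FC -0.07).

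B cell genes fell in part. Of 21 tested, 12 were downregulated and 0 upregulated, with a median log2FC of -1.27, or -0.99 with genes at background set to their bound. *Ms4a1*, the gene of CD20, was at 6.86, 7.20 and 7.33 and fell at least 7.07-fold to background on all 12 Gy arrays (adjusted p = 6.17e-06). *Fcmr*, the IgM Fc receptor, was at 7.01, 7.40 and 7.46 and fell at least 7.89-fold (adjusted p = 2.86e-07). *Cd79b*, a signalling chain of the B cell receptor, stayed above background and went from 8.36, 9.14 and 9.20 to 6.76, 6.26 and 6.19 (log2FC -2.50 ± 0.27, adjusted p = 8.39e-05). *Serpina9*, a serpin of germinal centre B cells, was at 8.98, 9.63 and 8.77 against 6.20, 4.62 and 4.69, and 1 of 3 12 Gy arrays measured it. No 12 Gy mouse reached a 0 Gy mouse in these genes. *Pou2af1*, a B cell coactivator, fell at least 5.26-fold and *Fcer2a*, the gene of CD23, at least 3.61-fold.

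Other B cell genes gave weaker values. *Cd22* had a log2FC of -0.37 ± 0.16 and *Pax5* of 0.32 ± 0.22, both uncalled, and *Cd79a* was above background on 1 of 6 arrays. Under the slide model 4 B cell genes were called and the median was -1.38, and with a normexp offset of 50, 6 were called. Of 6 plasma cell genes 1 was downregulated, *Derl3*, at 9.87, 10.20 and 10.26 against 7.63, 8.58 and 7.63. It was not called without mouse 11, 6 or 26, while 2 genes were called without mouse 1, nor was it called in the slide model. *Jchain*, the joining chain of secreted antibodies, had a log2FC of -0.57 ± 0.22 (adjusted p = 0.141).

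T cell genes fell in part. Of 19, 6 were downregulated and 0 upregulated, with a median log2FC of -0.87, and 3 were called in the slide model or with a normexp offset of 50. *Cd3d*, a chain of the T cell receptor complex, was at 8.40, 8.10 and 7.92 against 6.17, 6.81 and 6.18 (log2FC -1.75 ± 0.24, adjusted p = 0.000494). *Cd8b1*, the CD8 beta chain, fell at least 4.86-fold and *Ccr7*, the homing receptor of naive T cells, at least 5.02-fold, both to background on all 12 Gy arrays. *Lck*, the kinase of the receptor, fell by 1.13 ± 0.21. *Cd8a* was at 5.12, 5.92 and 5.17 against 4.30, 4.54 and 4.21, with an adjusted p of 0.0505. *Cd4*, which macrophages of the liver sinusoid may also carry, was at 11.23, 11.44 and 11.30 against 11.09, 11.02 and 10.87. *Cd3e* had a log2FC of -0.37 ± 0.39 on its brightest probe.

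Natural killer and cytotoxic genes had 8 of 14 downregulated and 0 upregulated, with a median log2FC of -1.07, and 3 were called in the slide model or with a normexp offset of 50. *Gzma*, granzyme A, was at 8.50, 8.75 and 8.29 against 6.29, 7.07 and 6.67 (log2FC -1.84 ± 0.17, adjusted p = 1.64e-05). *Ccl5*, a chemokine of T and killer cells, was at 10.48, 10.16 and 9.88 against 8.30, 8.67 and 8.02 (log2FC -1.85 ± 0.17, adjusted p = 1.64e-05). *Klrd1*, the gene of CD94, fell by 1.49 ± 0.13, *Nkg7* by 1.31 ± 0.15 and *Gzmb* by 1.57 ± 0.25. The groups did not overlap in any of these 5. *Prf1*, perforin, was at 6.38, 6.57 and 6.60 against 6.89, 6.58 and 6.30, and *Ncr1* was at background in both groups.

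The genes of antigen presentation by MHC class II, which B cells, dendritic cells and macrophages share, had 8 of 12 downregulated and 0 upregulated, with a median log2FC of -1.92. *H2-Aa*, the class II alpha chain, was at 10.76, 9.84 and 10.18 against 7.05, 7.44 and 7.07 (log2FC -3.07 ± 0.36, adjusted p = 0.000141). *Cd74*, the invariant chain, was at 13.67, 12.75 and 12.75 against 10.57, 10.80 and 10.36 (log2FC -2.48 ± 0.37, adjusted p = 0.00105). *H2-Ab1* fell by 2.71 ± 0.36, *H2-Eb1* by 2.77 ± 0.39, and *Ciita*, the master activator of these genes, by 1.90 ± 0.36. Mouse 1 was the highest mouse in each of these genes, and the 12 Gy mice lay below all 0 Gy mice. By the slide model the median was -1.24 and 1 gene was called.

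Among 13 dendritic cell genes 8 were downregulated, with a median log2FC of -1.06. *Itgax*, the gene of CD11c, was at 6.44, 6.33 and 6.05 and fell at least 3.11-fold (adjusted p = 1.17e-05). *Flt3*, the growth factor receptor of dendritic cell precursors, was at 5.99, 5.14 and 5.49 and fell at least 2.32-fold (adjusted p = 0.000842). Of the 8, 6 were at background on all 12 Gy arrays, and 0 were called with a normexp offset of 50 or in the slide model. *Batf3*, a factor of cross-presenting dendritic cells, was at 7.23, 7.46 and 7.28 against 6.56, 5.76 and 5.87, and its log2FC of -1.26 turned to 0.16 (adjusted p = 0.905) in the slide model. *Clec9a* (log2FC -0.19) and *Siglech* (log2FC 0.26) were not called.

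Neutrophil genes moved both ways, with 1 of 19 upregulated, 3 downregulated and a median log2FC of 0.14. *Lcn2*, lipocalin 2, which hepatocytes make in the acute phase as well, was at 12.71, 13.14 and 12.71 against 13.40, 14.27 and 14.14 (log2FC 1.08 ± 0.27, adjusted p = 0.0244). *Chil3* fell at least 4.31-fold, *Prtn3*, a granule protease made in precursors, at least 2.46-fold and *Camp* at least 2.06-fold, each to background on all 12 Gy arrays. *S100a8*, abundant in mature neutrophils, was at 6.15, 7.38 and 6.62 against 7.77, 7.22 and 8.40 (adjusted p = 0.0605), and *S100a9* had a log2FC of 0.98 (adjusted p = 0.0502). *Csf3r* (log2FC 0.15) and *Ly6g* (log2FC 0.17) were not called. In the slide model 0 were called higher and 1 lower. The count of upregulated genes was 0 without mouse 1, 21 or 26, 2 without mouse 11 or 6 and 3 without mouse 16, and with a normexp offset of 50, 1 gene was called lower.

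Few genes of the resident cells of the sinusoid were called. Of 23 Kupffer cell and macrophage genes 2 were downregulated, with a median log2FC of -0.60, and 16 had every 12 Gy mouse below every 0 Gy mouse. *Lyz2*, lysozyme, was at 9.80, 10.15 and 10.09 against 8.61, 8.28 and 8.87 (log2FC -1.42 ± 0.19, adjusted p = 0.000441). *Clec4f*, the lectin that defines Kupffer cells, was at 13.66, 13.67 and 13.71 against 12.98, 12.89 and 12.99, a log2FC of -0.72 ± 0.11 (adjusted p = 0.0011), below the fold needed for a call. *C1qb* was likewise at -0.93 ± 0.14 (adjusted p = 0.00104), and *Adgre1*, the gene of F4/80, at -0.60 ± 0.17 (adjusted p = 0.0439). *Folr2*, the other called gene, was at -1.03 and was not called without mouse 11, 21 or 16. Under the slide model 0 were called and the median was -0.28.

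*Lyve1*, a receptor for hyaluronan on sinusoidal and lymphatic endothelium, was the only one of 18 endothelial genes called, at 9.04, 9.17 and 9.32 against 11.12, 10.42 and 10.70 (log2FC 1.57 ± 0.22, adjusted p = 0.00054). It rose while the list's median was -0.59. *Clec4g*, a sinusoidal lectin, was at -0.79 ± 0.14, *Tek* at -0.84 ± 0.17 and *Stab2*, a scavenger receptor, at -0.25 ± 0.13. Of 18 stellate cell and matrix genes, *Ngfr* was downregulated, at 8.83, 8.91 and 8.97 against 6.94, 8.17 and 7.77 (adjusted p = 0.00783). Its list had a median of -0.53, and 2 genes were called without mouse 1 or mouse 26. *Col3a1*, a fibrillar collagen, was at -0.99 ± 0.21 (adjusted p = 0.0111), and *Col1a1* at -0.75 on its brightest probe and, called, at -1.56 on another. By the slide model neither list had a call, and the medians were -0.31 and -0.25. None of 9 bile duct genes was called, and *Krt19* had a log2FC of -0.77 ± 0.25 (adjusted p = 0.082).

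**Figure D3:**
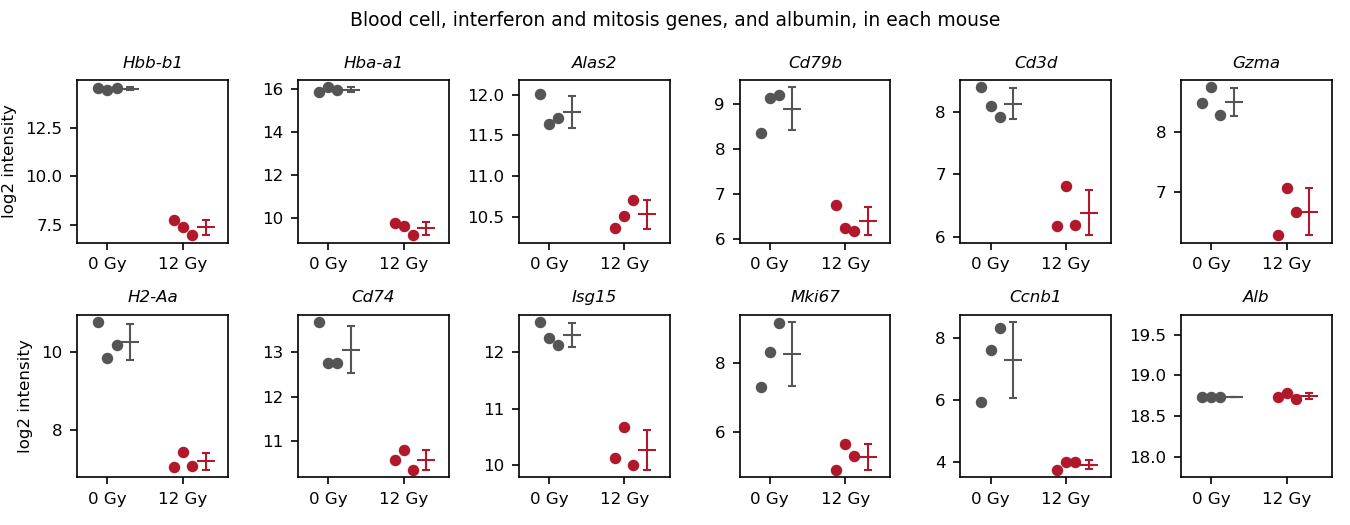
Log2 intensity (y axis) of blood cell, antigen presentation, interferon and mitosis genes and of albumin at 0 Gy (grey) and 12 Gy (red); dots are mice 1, 11 and 21 and mice 6, 16 and 26 from left to right, and the dash with its bar is the mean ± SD. The groups are apart in every panel but that of *Alb*, which stays between 18.71 and 18.78.

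No hepatocyte identity gene was called. *Apoa1* had a log2FC of -0.39 ± 0.13 (adjusted p = 0.0884), *Ttr* of -0.29 ± 0.10 and *Hnf4a*, the main hepatocyte factor, of 0.35 ± 0.17. Of 15 genes that mark the zones of the lobule 0 were called, with a median of -0.08. *Glul*, glutamine synthetase of the cells around the central vein, was at 14.78, 14.57 and 14.99 against 15.07, 14.63 and 14.94. *Cyp2f2*, of the portal side, was at 17.40, 17.25 and 17.31 against 16.76, 16.98 and 17.02 (log2FC -0.39 ± 0.11, adjusted p = 0.0478).

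Interferon response genes had lower values throughout. Of 26, 11 were downregulated and 0 upregulated, all 26 values were below 0 and the median log2FC was -1.0. *Isg15*, a ubiquitin-like protein of antiviral defence, was at 12.53, 12.25 and 12.13 against 10.14, 10.67 and 10.0043 (log2FC -2.03 ± 0.20, adjusted p = 4.25e-05). *Ifit1*, which binds foreign RNA, was at 10.23, 9.56 and 9.75 against 7.87, 8.46 and 7.95 (log2FC -1.75 ± 0.25, adjusted p = 0.00083). *Rsad2*, viperin, fell by 1.68 ± 0.22 and *Oasl1* by 1.53 ± 0.30. *Irf1*, at -0.99 ± 0.20 (adjusted p = 0.00756), missed the fold threshold, and *Irf7* was at -0.23 ± 0.14. In the slide model the median was -0.93 and 0 were called.

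In the chemokine list 4 of 25 genes were downregulated and 0 upregulated (median log2FC -0.59), and 2 were called in the slide model. *Cxcl9*, which draws T cells and is induced by interferon gamma, was at 11.84, 10.87 and 10.87 against 8.72, 9.60 and 8.49 (log2FC -2.25 ± 0.40, adjusted p = 0.00336). *Ccl21a*, which guides cells bearing CCR7, was at 9.87, 10.11 and 10.17 against 8.60, 8.43 and 9.12 (log2FC -1.33 ± 0.23, adjusted p = 0.00255). *Cxcl10* was at -1.81 ± 0.53 (adjusted p = 0.0556). *Cxcl1*, a neutrophil attractant, went the other way without a call, at 9.07, 10.46 and 11.03 against 11.48, 11.71 and 12.03 (adjusted p = 0.0897). *Ccl2* was at 7.67, 7.41 and 7.79 against 6.75, 6.80 and 7.29.

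Acute phase genes rose in part. Of 26, 6 were upregulated and 0 downregulated, with a median log2FC of 0.52, and 1 was called in the slide model. *Saa1*, serum amyloid A, was at 14.28, 13.79 and 13.78 against 17.64, 18.29 and 17.43 (log2FC 3.84 ± 0.40, adjusted p = 5.99e-05). *Saa2*, a near-identical neighbour whose probe may read both, rose by 3.82 ± 0.45. Neither passed in the slide model, at adjusted p values of 0.0938 and 0.0778. *Serpina3n*, a protease inhibitor, was at 11.54, 11.60 and 11.95 against 13.21, 13.24 and 13.55 (log2FC 1.64 ± 0.15, adjusted p = 1.64e-05) and was called there. *Orm3*, an orosomucoid, rose by 1.36 ± 0.17 and *Saa3* by 1.22 ± 0.23.

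Acute phase proteins already high at 0 Gy changed little. *Hp*, haptoglobin, was at 17.75, 17.70 and 17.66 against 17.99, 18.01 and 17.97 (log2FC 0.29 ± 0.08), and *Fgb*, a fibrinogen chain, had a log2FC of -0.03 ± 0.10. *Hamp*, hepcidin, was at 17.08, 17.18 and 16.93 against 17.97, 17.91 and 17.95 (log2FC 0.88 ± 0.11, adjusted p = 0.000272), below the fold needed. In the iron list *Id1*, a target of the BMP signal that also drives hepcidin, was the only gene called of 19, at 9.55, 9.77 and 10.26 against 12.23, 12.03 and 12.49 (log2FC 2.39 ± 0.27, adjusted p = 0.000123). It was not called in the slide model (log2FC 2.17, adjusted p = 0.128). *Smad7*, another BMP target, was at 1.18 ± 0.36 (adjusted p = 0.0684), while *Bmp6*, the ligand, was at -0.19 ± 0.23 and *Tfrc*, the transferrin receptor, at -0.26 ± 0.39.

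Of 27 interleukin and TNF family ligands and receptors, 2 were upregulated and 2 downregulated, with a median of -0.02. *Il1r1*, the interleukin 1 receptor, was at 9.45, 8.93 and 9.27 against 10.72, 10.22 and 11.30 (log2FC 1.53 ± 0.30, adjusted p = 0.00628). *Il6ra*, the interleukin 6 receptor, was at 13.51, 13.06 and 13.02 against 14.39, 14.35 and 14.49 (log2FC 1.21 ± 0.23, adjusted p = 0.00495). Both are receptors of the cytokines that drive the acute phase. *Ltb*, lymphotoxin beta of lymphocytes, was at 8.38, 8.43 and 8.09 against 5.99, 6.15 and 6.06 (log2FC -2.23 ± 0.13, adjusted p = 2.7e-07), and *Tnfsf10*, the gene of TRAIL, fell by 1.17 ± 0.27. Of these 4, *Ltb* alone was called in the slide model, and 1 was called lower without mouse 6. *Tnf* was at 7.21, 7.56 and 6.99 against 7.07, 6.88 and 7.03.

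Genes that glucocorticoids induce had 7 of 17 upregulated and 0 downregulated, with a median log2FC of 1.07. Of the 7, *Cdkn1a* and *Gadd45b* are p53 or damage genes and *Lcn2* an acute phase gene, and all 3 were counted above. *Fkbp5*, a chaperone of the glucocorticoid receptor, was at 10.69, 10.44 and 10.50 against 11.91, 12.06 and 12.38 (log2FC 1.57 ± 0.20, adjusted p = 0.000302). *Cebpd*, a factor of the acute phase, was at 9.82, 9.50 and 9.79 against 11.48, 11.98 and 11.64 (log2FC 2.00 ± 0.29, adjusted p = 0.00084). *Tsc22d3*, the gene of GILZ, rose by 1.07 ± 0.23. *Per1* was at 0.98 ± 0.21 (adjusted p = 0.0102), *Zbtb16* at 1.52 ± 0.49 (adjusted p = 0.0803) and *Tat*, tyrosine aminotransferase, at 0.39 ± 0.15. A dimmer *Zbtb16* probe, at background on all 0 Gy arrays, was called, at least 2.09-fold higher (adjusted p = 0.03). Under the slide model the median was 0.37 and the 1 gene called was *Cdkn1a*, so *Fkbp5*, *Cebpd* and *Tsc22d3* were not. Without mouse 21, 4 were called.

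The immediate early genes *Fos*, *Jun* and *Egr1* varied widely among the mice of a dose. *Fos* was at 5.42, 8.09 and 11.17 against 8.07, 10.19 and 12.05 (log2FC 1.88 ± 1.69, adjusted p = 0.606). *Jun* was at 7.75, 9.52 and 10.69 against 9.77, 10.61 and 11.53, and *Egr1* at 8.36, 10.54 and 12.05 against 12.56, 12.08 and 12.79. In all 3 genes mouse 1 was the lowest of the 0 Gy mice and mouse 21 the highest, and mouse 26 was the highest of all. In *Fos* and *Jun* mouse 6 was the lowest 12 Gy mouse, so values rose with the mouse number at both doses. Of 21 genes in the list 10 had every 12 Gy mouse above every 0 Gy mouse, and *Cebpd* and *Cebpb*, the latter rising by 1.02 ± 0.19, were upregulated. The median log2FC was 0.55 and turned to -0.24 in the slide model, where 0 were called. Without mouse 1 or mouse 26, 1 was called.

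Genes of fat synthesis fell in part. Of 21 lipogenesis genes, 6 were downregulated and 0 upregulated, with a median log2FC of -0.91. *Srebf1*, the factor by which insulin turns these genes on, was at 15.17, 15.14 and 14.64 against 13.54, 13.55 and 13.26 (log2FC -1.53 ± 0.18, adjusted p = 0.000176). *Fasn*, fatty acid synthase, was at 15.17, 15.37 and 14.87 against 13.35, 14.21 and 13.90 (log2FC -1.32 ± 0.32, adjusted p = 0.0211). *Elovl6*, which lengthens its product, was at 12.94, 12.64 and 12.09 against 10.56, 11.45 and 10.97 (log2FC -1.56 ± 0.27, adjusted p = 0.00285). Mouse 6 was the lowest mouse for *Fasn* and *Elovl6*. *Acly*, which makes cytosolic acetyl-CoA, fell by 1.07 ± 0.23. *Scd1*, the desaturase, at -1.17 ± 0.34 (adjusted p = 0.0557), and *Acacb*, at -1.41 ± 0.43 (adjusted p = 0.0671), were not called. Without mouse 11 or mouse 6, 3 were called, and in the slide model 0, at a median of -0.86.

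Cholesterol synthesis genes set mouse 6 apart. None of 22 was called, or 1 lower without mouse 16, and the median log2FC was -0.56. The slide model, whose 12 Gy value is that of mouse 6, gave a median of -1.08. The median deviation from the 0 Gy mean was -1.18 in mouse 6, 0.01 in mouse 16 and -0.26 in mouse 26. *Sqle*, squalene epoxidase, was at 14.01, 14.18 and 13.79 against 12.19, 14.13 and 13.74. *Fdps* was at 14.99, 15.21 and 14.89 against 13.04, 14.64 and 14.24 (adjusted p = 0.175).

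Genes of fat oxidation and fasting include many targets of the receptor PPAR alpha. Of 32, 8 were upregulated and 0 downregulated, with a median log2FC of 0.57. *Cyp4a14*, a fatty acid hydroxylase, was at 7.03, 7.26 and 8.05 against 9.61, 8.80 and 10.50 (log2FC 2.19 ± 0.46, adjusted p = 0.00992). *Acot3*, an acyl-CoA thioesterase of peroxisomes, was at 9.99, 10.90 and 12.38 against 13.66, 12.67 and 13.57 (log2FC 2.21 ± 0.50, adjusted p = 0.0137). *Vldlr*, a lipoprotein receptor, was at 8.12, 8.21 and 8.79 against 9.97, 9.58 and 9.77 (log2FC 1.40 ± 0.25, adjusted p = 0.00332). Mouse 16 was the lowest 12 Gy mouse in each of these 3 genes, though above every 0 Gy mouse.

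*Angptl4*, an inhibitor of lipoprotein lipase, was at 13.86, 13.39 and 14.12 against 15.11, 14.98 and 15.36 (log2FC 1.36 ± 0.23, adjusted p = 0.00219). *Cpt1c* rose by 1.36 ± 0.14 (adjusted p = 5.23e-05) and was the gene of the list that was called in the slide model, while a dimmer probe of it gave 0.51 and was not called. *Acot5* and *Cyp4a10* were called although mouse 16 lay among the 0 Gy mice, at 9.43 against 7.73 to 9.53 for *Acot5*. Other genes of the list were not called: *Cpt1a* was at 0.66 ± 0.16 (adjusted p = 0.0184) and *Ppara* itself at 0.40 ± 0.32. *Pdk4* was at 1.36 ± 0.39 (adjusted p = 0.0509). Of the 8 calls, 4 were made without mouse 1, 11 or 6 and 3 without mouse 26, and 5 with the slide as a random block.

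Coats of lipid droplets differed by member. Of 22 lipid droplet genes 3 were upregulated and 1 downregulated, with a median of 0.05 (-0.08 in the slide model). *Plin4* was at 6.78, 6.80 and 6.57 against 9.30, 8.34 and 9.75 (log2FC 2.41 ± 0.38, adjusted p = 0.00142), and *Plin5*, the perilipin of oxidative tissue, rose by 1.47 ± 0.25. *Plin2*, the main hepatocyte perilipin, was at 13.79, 13.94 and 14.46 against 14.10, 13.58 and 14.65. *Fabp5*, a fatty acid binding protein, was at 12.86, 13.56 and 13.36 against 10.48, 10.83 and 10.38 (log2FC -2.70 ± 0.23, adjusted p = 7.71e-06), and was the 1 gene of the list called in the slide model. *Lpin1*, which makes diacylglycerol and supports fasting genes, rose by 1.14 ± 0.30 (adjusted p = 0.0322). It was also a member of the clock list, and the 1 gene called there. Without mouse 11, 6 or 26, 2 were called lower.

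None of 19 genes of gluconeogenesis and glucose handling was called, with a median of 0.20 (-0.03 in the slide model). *Pck1* was at 16.51, 16.47 and 16.46 against 16.83, 16.97 and 17.08 (log2FC 0.48 ± 0.13, adjusted p = 0.0427) and *G6pc* at 13.79, 13.97 and 13.29 against 13.26, 12.61 and 14.57. Of 19 genes on the clock list 1 was called, the lipid gene *Lpin1*, and the median was 0.29. *Dbp* was at -0.85 ± 0.22 (adjusted p = 0.0296), *Nr1d1* at -1.24 ± 0.50 (adjusted p = 0.163) and *Clock* at -0.00 ± 0.19. The clock calls were 2 without mouse 1 and 0 without mouse 11, 21 or 16 or in the slide model.

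**Figure D4:**
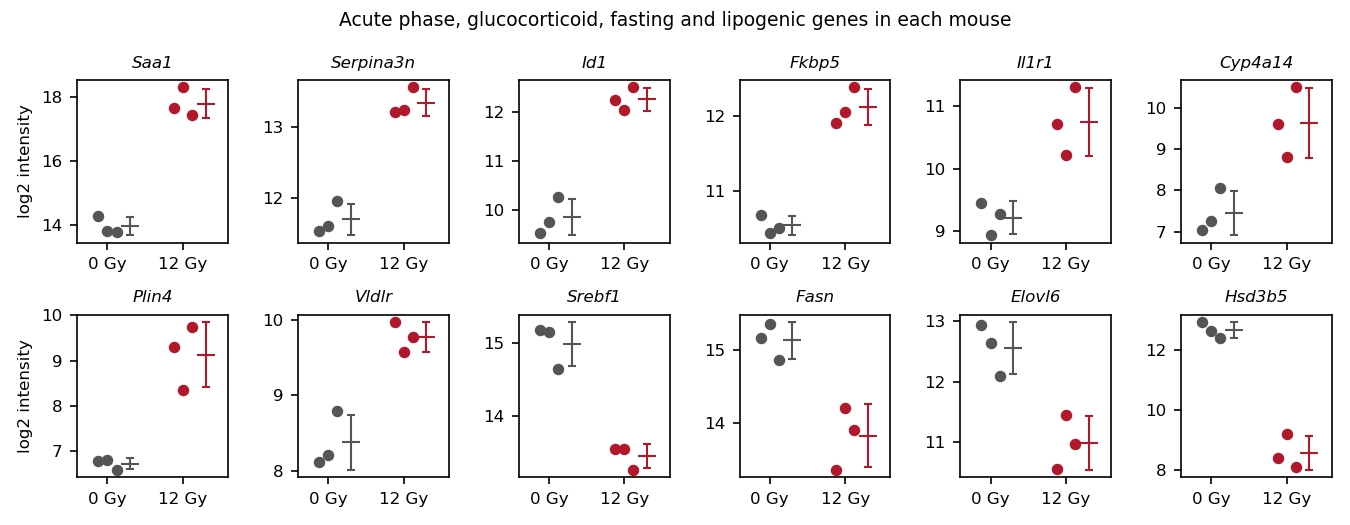
Log2 intensity (y axis) of acute phase, glucocorticoid, cytokine receptor, fasting, lipid and sex-biased genes at 0 Gy (grey) and 12 Gy (red); dots are mice 1, 11 and 21 and mice 6, 16 and 26 from left to right, and the dash with its bar is the mean ± SD. The 12 Gy mice lie above the 0 Gy mice from *Saa1* to *Vldlr* and below them in *Srebf1*, *Fasn*, *Elovl6* and *Hsd3b5*.

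Genes under growth hormone control, which differ between male and female liver, had 4 of 31 upregulated and 2 downregulated, with a median of -0.03. *Hsd3b5*, a steroid dehydrogenase that is male-biased in mouse liver, was at 12.92, 12.63 and 12.39 against 8.41, 9.19 and 8.10 (log2FC -4.08 ± 0.57, adjusted p = 0.000639). *Slco1a1*, another male-biased gene, was at 13.16, 12.81 and 12.90 against 11.12, 11.49 and 11.08 (log2FC -1.73 ± 0.38, adjusted p = 0.0125). *Cux2*, a female-biased factor, was at 6.52, 7.76 and 7.75 against 9.37, 9.0043 and 9.10 (log2FC 1.81 ± 0.34, adjusted p = 0.00467). *Igf1*, the main growth hormone target, was at 15.96, 16.23 and 16.15 against 15.74, 15.64 and 15.63 (log2FC -0.44 ± 0.11, adjusted p = 0.026), and *Ghr* was at -0.16 ± 0.11. *A1bg* was at 7.73, 11.55 and 11.39 against 8.58, 7.96 and 7.95, with mouse 1 among the 12 Gy values. By the slide model 0 were called, and 2 were called higher without mouse 1, 6 or 26, and 1 lower without mouse 26.

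Few drug-metabolizing genes were called. Of 34 cytochromes P450, 2 were upregulated and 1 downregulated, with a median of 0.07. *Cyp2j9* rose by 1.20 ± 0.19, *Cyp39a1*, a hydroxylase of bile acid synthesis, by 1.11 ± 0.18, and *Cyp2u1* fell by 1.26 ± 0.23. *Cyp7a1*, the rate-limiting enzyme of bile acid synthesis, was at 13.72, 12.78 and 13.27 against 13.26, 13.15 and 13.02, and *Cyp3a11* at 15.36, 16.98 and 16.86 against 17.12, 15.97 and 17.13. None of 29 phase II conjugation genes was called (median 0.17), or 1 without mouse 1. Of 21 NRF2 antioxidant genes 3 were upregulated: *Nqo1* by 1.21 ± 0.21, *Ephx1* by 1.07 ± 0.17 and *Ces1g* by 1.06 ± 0.21. *Hmox1*, heme oxygenase, was at 0.07 ± 0.13. In the slide model 0 P450 or NRF2 genes were called. Without mouse 1 the NRF2 calls were 1, and without mouse 21 1 P450 was called higher.

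Of 38 transporters, 3 were upregulated and 5 downregulated, with a median of 0.00. *Slco1a4*, an organic anion transporter, was at 11.78, 12.49 and 12.71 against 13.60, 13.15 and 13.42 (log2FC 1.06 ± 0.27, adjusted p = 0.0295). *Slc22a5*, the carnitine transporter, rose by 1.08 ± 0.23 and *Slc16a7* by 1.02 ± 0.16. *Slc6a20a* fell at least 3.41-fold to background, *Slc13a2*, a citrate transporter, by 1.26 ± 0.32, and *Slc35b1*, which brings ATP into the endoplasmic reticulum, by 1.0 ± 0.15. *Abcc3*, an exporter of conjugates, was at 0.78 ± 0.14 (adjusted p = 0.00423). The counts were unstable: 0 higher calls without mouse 11 or 26 and 1 without mouse 6, 2 lower calls without mouse 1, 11 or 6, 2 each way in the slide model, and 1 lower with a normexp offset of 50.

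In the endoplasmic reticulum, *Sdf2l1*, a cochaperone, was at 12.22, 12.00 and 11.82 against 10.16, 10.25 and 10.11 (log2FC -1.84 ± 0.21, adjusted p = 0.000107) and *Calr*, calreticulin, fell by 1.06 ± 0.15. They were the 2 of 25 stress genes called, with a median of -0.39, 4 being called lower without mouse 21 or mouse 6 and 0 in the slide model. *Hspa5*, the chaperone BiP, was at 15.49, 14.68 and 15.27 against 14.91, 14.91 and 14.76, and *Herpud1* was at 0.90 ± 0.22 (adjusted p = 0.0211). Of 28 amino acid and urea cycle genes, *Psat1* of serine synthesis fell by 1.03 ± 0.26, and it was not called without mouse 11, 21, 6 or 26 or in the slide model. *Cps1*, which starts the urea cycle, was at 16.09, 15.82 and 15.63 against 15.74, 15.90 and 16.08.

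Among 16 long non-coding RNAs tested 3 were upregulated and 0 downregulated, with a median of 0.57. *Gm45941*, a predicted gene, was at 5.83, 5.83 and 6.09 against 10.42, 10.08 and 9.92, a log2FC of 4.23 ± 0.33 (adjusted p = 3.37e-06) and the second largest rise of a named gene. *Snhg15*, a snoRNA host gene, was at 8.29, 8.42 and 8.36 against 10.12, 10.24 and 10.23 (log2FC 1.84 ± 0.20, adjusted p = 7.78e-05), and *Snhg1* rose by 1.17 ± 0.19. *Gas5* was at 0.26 ± 0.11, and *H19* at 7.55, 7.03 and 7.71 against 5.37, 7.58 and 5.84, with mouse 16 among the 0 Gy values. Under the slide model *Gm45941* alone of the list was called.

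**Figure D5:**
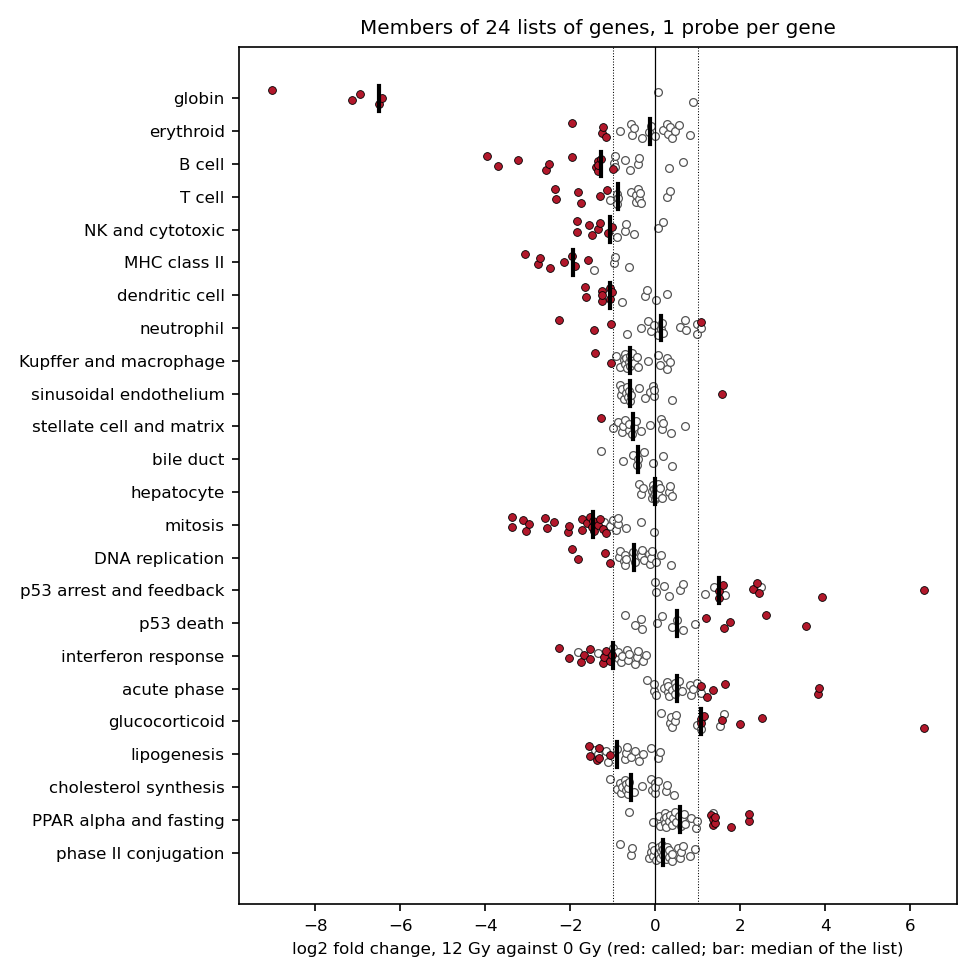
Each row is a list of genes and each circle 1 of its tested genes, placed by its log2 fold change at 12 Gy against 0 Gy (x axis); red circles are called, the black bar is the median of the list and dotted lines are at 1 and -1. Globin, MHC class II, mitosis and B cell lists lie farthest to the left and p53 arrest and glucocorticoid lists farthest to the right, with the hepatocyte list at 0.

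Between 12 and 8 Gy no probe of 38362 was called (0%) in limma. An unadjusted p below 0.05 was found for 3753 probes. The slide model is left out here, because it sets mouse 6 alone against the 8 Gy mice. All 8 Gy arrays lay on slide 2, with mouse 6, so that within this slide 1 12 Gy mouse can be set against 3 mice, with no test. *Cdkn1a* was at 11.23, 11.80 and 11.83 in the 8 Gy mice 5, 15 and 25, all below the 12 Gy mice, a difference of 1.17 ± 0.24 (adjusted p = 0.351). *Phlda3* was at 10.30, 10.57 and 10.74 at 8 Gy, a difference of 0.77 ± 0.14 (adjusted p = 0.321). *Ddit4l* was at 6.18, 6.76 and 7.08 at 8 Gy, a difference of 1.07 ± 0.25 (adjusted p = 0.359). In these 3 genes every 12 Gy mouse lay above every 8 Gy mouse, and mouse 6 did so within slide 2. The share of all genes separated this way from 8 Gy was not counted, so these 3 have no background. *Gzma* was at 7.68, 7.54 and 7.75 at 8 Gy, a difference of -0.98 ± 0.17 (adjusted p = 0.274), and *Klrd1* differed by -0.76 ± 0.13 (adjusted p = 0.274). Over the lists the median difference between 12 and 8 Gy was -0.70 for globins, -0.44 for cytotoxic genes, -0.38 for MHC class II, 0.34 for p53 arrest and -0.06 for mitosis. The median difference over all probes was -0.01.

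Among the genes with the largest differences from 8 Gy at an unadjusted p below 0.05, 4 stood out in mouse 6 alone. *Zbtb34* was at 10.43 in mouse 6 and 5.48 and 5.90 in mice 16 and 26, against 5.23, 5.32 and 5.19 at 8 Gy, and *4930452A19Rik*, *Gm15319* and *Gm7073* were likewise high in mouse 6 alone. *Slc15a2*, a peptide transporter, was at 7.21, 7.12 and 6.98 against 4.47, 6.05 and 5.93 (difference 1.62 ± 0.36, adjusted p = 0.359). *Sult2a1*, a sulfotransferase of steroids, was at 9.97, 9.26 and 11.91 against 14.36, 11.45 and 13.02 at 8 Gy, but at 8.96, 11.98 and 12.77 at 0 Gy, so that its mice varied at each dose. *Sult2a4* differed by -3.14 ± 0.90 (adjusted p = 0.394). *Defa38*, *A830011K09Rik* and *Olfr498* were well above background in 2 of 3 8 Gy mice and in no 12 Gy mouse (adjusted p 0.433, 0.359 and 0.409). With 3 mice a dose, an uncalled difference does not show that the doses act alike.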

How the data were processed

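Total RNA of each liver was measured on a 1-colour Agilent mouse array, scanned with Agilent Feature Extraction (version 11.5.1.1, per the file headers). The authors deposited, for every spot, median intensity values for the spot and for the surrounding background, not normalized between arrays, together with a processed, background-subtracted signal intensity. They also deposited a series file of linear intensity values whose normalization is not given in the sources used here, and it was used as an alternative only. No genome alignment is involved.

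From the deposited intensities, spot medians were background-corrected with normexp (offset 0), control spots were dropped, spots marked as outliers were set to missing, the 18 liver mRNA arrays were quantile-normalized, and replicate spots of 1 probe were averaged on the log2 scale. Of 56605 probes, 38362 passed the filter, being well above background in at least 0.5 of their spots on 1 or more arrays. limma 3.58.1 in R 4.3.3 fitted 6 dose groups with empirical Bayes moderation, so all doses share 1 estimate of the spread, and B-H adjustment ran over all probes within a comparison. Adjusted p values come from this limma fit. Calls required an absolute log2FC over 1 with adjusted p under 0.05, as in the study's methods. A fold bound sets the brighter group's mean against the mean of, per array, the probe's own signal or, if higher, the lowest signal among probes well above background. The number of arrays limits the precision, and each sample number in the labels was read as 1 mouse. The p values weigh a difference between group means against the spread among mice within the 6 dose groups. The fit was tested on simulated data that held no slide effect, so that test does not bear on the slides.

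Probes were named by matching accessions to RefSeq, which gave 25769 tested probes 1 symbol (18164 genes) and left 12593 without one. A gene is given by its brightest probe, and other probes are given for a few genes only. For *Acly*, *Acot5*, *Cyp4a10*, *Gins2*, *Lpin1*, *Ms4a1*, *Psat1*, *Rad51ap1*, *Rsad2*, *Slc16a7* and *Tsc22d3*, too, the brightest probe was called and a dimmer one was not. Named are the 15 genes with the largest rise and the 15 with the largest fall among called genes whose groups do not overlap, the members of 43 lists with the largest changes or that define a cell type or step, and the 5 largest differences each way from 8 Gy. The members and the lists were chosen with earlier results of these data known. Of 875 listed genes 829 were tested. Some members are counted but not reported here by name.

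Alternatives were the processed signal scaled to its 75th percentile, a normexp offset of 50, the series values, other filters, other sets of arrays, the slide as a term or random block, outlier spots kept, another empirical Bayes setting, and each mouse left out in turn. A block by set of mouse numbers was added after seeing the data. Promoters are RefSeq, GRCm38.p6. Tables were read with pandas 2.3.3 and the data.table package (version 1.17.8) and figures drawn with matplotlib 3.10.9 in Python 3.11.15.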

Additional observations from a re-analysis of the deposited data

How the results depend on the processing

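Against 0 Gy, the 790 called probes (280 higher, 510 lower) became 468 higher with the processed signal and 442 higher with the series values. They became 443 in all, 241 of them lower, with a normexp offset of 50. With the slide as a term they became 348 in all, 151 of them lower, and 125 of these were among the 790. Of the 790, 4 changed sign in that fit, whether or not they were called there. The 171 called genes of the lists became 39 with the slide as a term. The share of lower calls was 64.6% in the main setting, 54.4% with the offset and 43.4% with the slide term. Leaving out each mouse gave 633 to 843 calls, 230 to 324 higher and 403 to 525 lower, and 142 to 172 of the lists. Against 8 Gy, the count of 0 became 3 with the processed signal, 1 with the series values, 1 with a filter on all 3 arrays of a group, 13 with lung arrays added and 192 with the slide as a term, and lay between 0 and 11 with a mouse left out. The 844 named genes include uncalled ones, which cannot lose a call. Of the called ones, 171 of them on the lists, 135 lost their call with the slide as a term. *Batf3* was the only called gene to reverse under any alternative run, to 0.16. Uncalled genes changed sign too, such as *Fos* and *Jun*, which went from above 0 to -2.09 and -1.77 with the slide as a term. The cause of these differences was not tested. Because the slide term rests on mice 23 and 6, its estimates carry larger errors. The remaining alternatives gave 730 to 1175 calls. The processed signal moved the median of all probes to 0.10, and the other settings moved it by less than 0.1. For 152 called probes signal at background limits the size of the fall. The 0 Gy and 12 Gy mice share no number, but numbers run in sets (1 and 6, 11 and 16, 21 and 26) whose meaning the labels do not give. Deviations of same-set mice from their group means correlated at -0.05, -0.04 and 0.06 over the probes, and the main fit did not take the sets as pairs. A correlation over all probes cannot exclude a set effect in some genes. The median deviation of the immediate early list from the 0 Gy mean rose with the sets at both doses. It was -0.51, -0.02 and 0.51 in mice 1, 11 and 21, and 0.20, 0.51 and 1.02 in mice 6, 16 and 26. With a replicate block by set, chosen after seeing the data, 785 probes were called (284 higher, 501 lower), 173 of the list genes, and 0 against 8 Gy. The immediate early list then had 5 calls in place of 2 and the clock list 0 in place of 1, *Btg2*, *Cd8a*, *Cxcl1*, *Dusp1*, *Egr1*, *Gdf15*, *Jun* and *Plk3* gained a call, and *Acot5*, *Cyp4a10*, *Lpin1*, *Psmb9*, *Slco1a4* and *Tnfrsf13c* lost theirs.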

Other observations

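Of 504 called genes, 333 were on no list, 104 of them upregulated and 229 downregulated, and the examples here were chosen after their values were seen. Among the upregulated, *Atp8b5*, a lipid flippase, was at 5.96, 6.37 and 6.30 against 9.22, 9.75 and 9.54 (log2FC 3.29 ± 0.40, adjusted p = 0.000202). *Mybl1*, a MYB family transcription factor, was at 4.78, 5.58 and 5.41 against 7.86, 7.72 and 7.46 (log2FC 2.42 ± 0.23, adjusted p = 2.15e-05). *Dyrk3*, a kinase, was nearly the same in the mice of each dose, at 6.73, 6.72 and 6.72 against 8.62, 8.37 and 8.58 (log2FC 1.80 ± 0.12, adjusted p = 4.52e-07). *Errfi1*, an inhibitor of the EGF receptor, rose by 1.62 ± 0.19, *Mfsd2a*, a transporter of lysolipids induced by fasting, by 1.78 ± 0.32, and *Ddit4*, an inhibitor of mTOR signalling, by 1.71 ± 0.37. *1700007K13Rik* rose by 2.60 ± 0.36 and *Gm9949* by 2.41 ± 0.22.

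Among the downregulated, *Coro1a* and *Lsp1*, actin-binding proteins of leukocytes, were at 9.91, 9.86 and 9.84 against 7.48, 7.01 and 7.19 and at 9.32, 9.13 and 9.09 against 6.93, 6.99 and 7.14. *Zdhhc22* was at 8.52, 8.74 and 8.59 against 5.41, 5.07 and 5.34 (log2FC -3.34 ± 0.22, adjusted p = 4.6e-07), and 1 of 3 12 Gy arrays measured it above background. *Nudt7*, a peroxisomal hydrolase of coenzyme A, was bright at 16.42, 16.31 and 16.20 and fell by 1.90 ± 0.16 (adjusted p = 6.17e-06). *Aqp8*, a water channel, fell by 1.69 ± 0.26. *Shcbp1* and *Racgap1*, of dividing cells, fell at least 5.35-fold and at least 4.43-fold. A further 161 called probes carried no gene symbol.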
